A study of Homo sapiens with 12 samples.

Results

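A set of 10 genes known for their roles in the oocyte, the early embryo and the germline was followed in naive and primed human embryonic stem cells: KHDC3L, KHDC1L, NLRP7, NLRP2, OOEP, MAEL, HORMAD1, DPPA5, ARGFX and DAZL. They were taken by symbol from the tables, 10 of the 23590 gene symbols on the main chromosomes. Naive and primed are names for states of pluripotent stem cells that resemble the embryo before and after implantation. Transcripts of the egg's cytoplasm, among them those of the subcortical maternal complex, are stored in the oocyte and act in the first cleavages; KHDC3L, OOEP, NLRP2 and NLRP7 have been placed in or near that complex. Germline genes such as MAEL, HORMAD1 and DAZL are usually kept silent in somatic cells by methylation of their promoters, and some paired-like homeobox genes, ARGFX among them, are transcribed when the human embryo first activates its own genome.

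Poly(A) RNA of hand-picked colonies was sequenced from 4 groups of 3 libraries. Naive H9 (passages 27 to 31) and naive RUES-2 (passages 24 to 26) were kept with 20 ng/mL LIF, the MEK inhibitor PD0325901 at 1 µM, the GSK3 inhibitor CHIR99021 at 3 µM, insulin at 18 µg/mL and glucose at 5 mM. Primed H9 (passages 31 to 35) and primed RUES-2 (passages 30 to 33) grew on mouse embryonic fibroblast feeders treated with mitomycin C, with 4 ng/mL bFGF. H9 and RUES-2 are established lines, each from 1 embryo, and passage, medium and growth surface all run with the state. The replicates are called biological, but nothing says that they came from separate cultures, and p-values measure only how far these libraries scatter, which may be technical.

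Levels are given as FPKM, fragments counted per length of transcript and scaled to the library, which allow levels of different genes to be set side by side. Between 12681 and 13593 genes reached 1 FPKM in a library, and the bounds deposited with the values imply a median of 47.5 to 112 fragments for a gene between 1 and 2 FPKM. All 8 core pluripotency markers reached 1 FPKM in all 4 groups, but most moved with the state. In naive H9 4 were called lower (L1TD1, POU5F1, SOX2 and TDGF1), beside 23.9% of all genes tested. In naive RUES-2 7 were called lower, beside 23.7%, and NANOG higher, by 2.49 (limma adjusted p = 0.000249). Of 10 fibroblast markers, 7 were called higher in naive H9 and 6 in naive libraries labelled RUES-2, beside 20.4% and 23.1% of all genes tested. Their summed level was 319 to 490 FPKM in naive H9, against 36.4 to 106 FPKM in primed H9, and 192 to 1050 FPKM in naive RUES-2, against 28.8 to 60.6 FPKM in primed RUES-2. In bulk RNA, fewer cells of a type and less RNA per cell cannot be told apart, and the part of this in the results below was not tested. A check of line identity found 3 of the libraries labelled RUES-2 unlike the others with that label, and this ran with the state, so that line and state cannot be told apart among them. No library labelled H9 stood apart in that check. Primed RUES-2 replicate 2 stood apart in NLRP2, NLRP7 and DPPA5, as described with those genes.

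The data bear out the name of naive oocyte and germline genes for a few of the 10 and not for the rest. KHDC3L and KHDC1L were higher in naive H9 and near 0 in the other 3 groups. NLRP7 stood higher in naive than in primed libraries of both labels, with the difference called in RUES-2 and not in H9. HORMAD1 was present at a low level in naive libraries of both labels and listed at 0 in all primed ones. NLRP2 was abundant in both states. OOEP and MAEL were near 0 throughout, ARGFX was at a low level in every library, with all groups overlapping, and neither DPPA5 nor DAZL was called higher in naive cells.

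**Figure D1:**
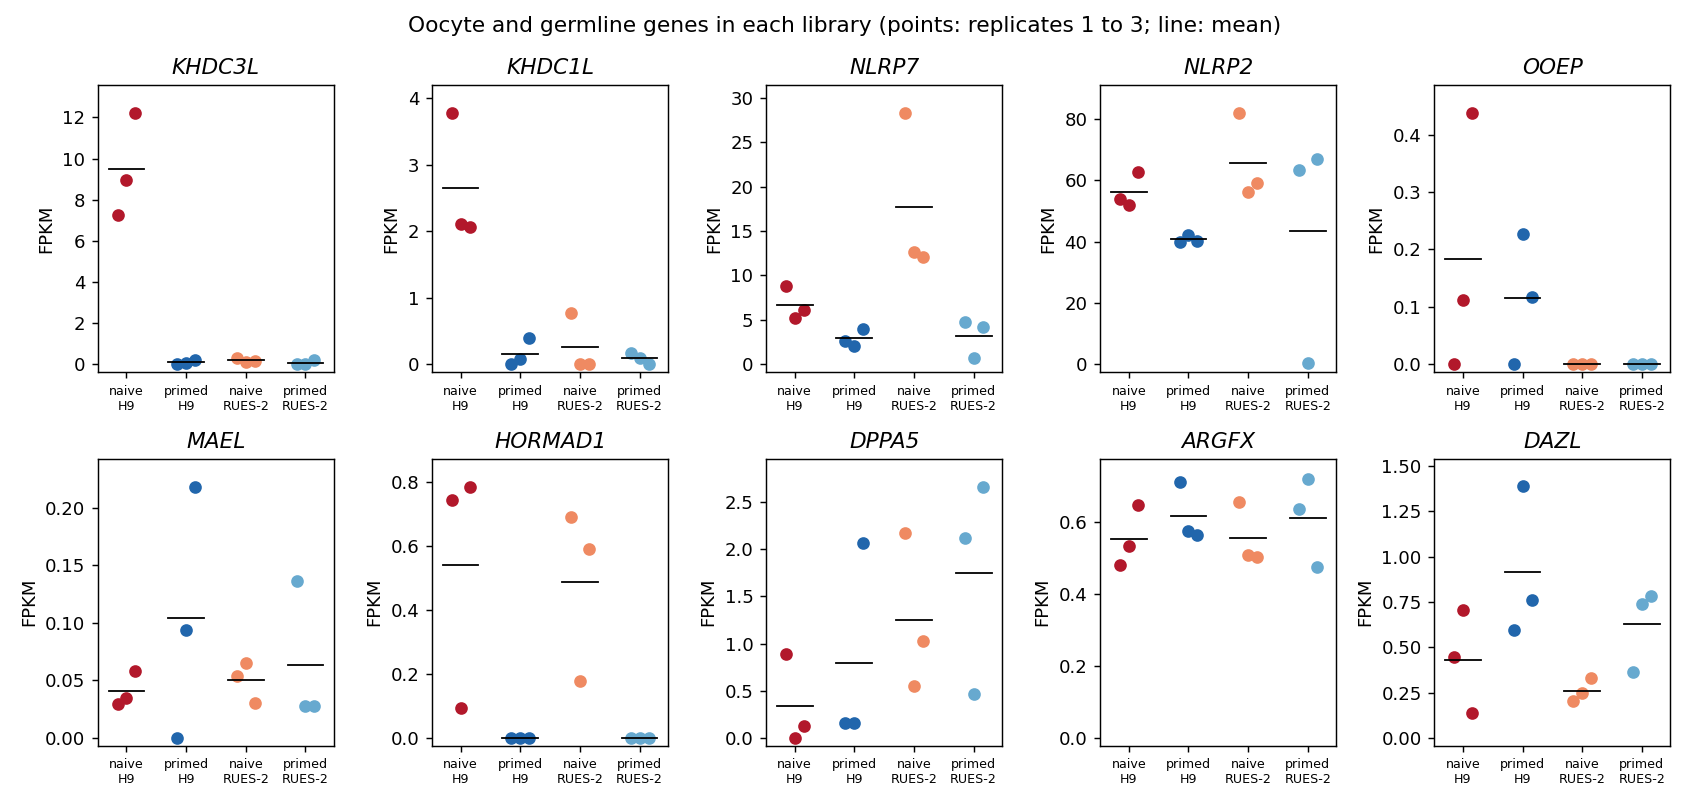
FPKM of the 10 genes (vertical axes, linear, a scale of its own per gene) in naive H9, primed H9, naive RUES-2 and primed RUES-2; points are replicates 1 to 3 from left to right and lines are group means. KHDC3L and KHDC1L stand high in naive H9 alone, NLRP7 is highest in naive RUES-2, and HORMAD1 is at 0 in all primed libraries.

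Of the 10, KHDC3L, KHDC1L, NLRP7, NLRP2 and DPPA5, had at least 1 FPKM in at least 3 libraries and entered the main test (5 genes), in which limma was run on log2(FPKM + 1) for 14429 genes and genes were called at a Benjamini-Hochberg adjusted p under 0.05. KHDC3L and KHDC1L passed that filter through naive H9 alone, so they had to differ there. In H9, 2 of the 5 were called higher in naive cells (20.4% of all genes tested) and 0 lower (23.9%). In libraries labelled RUES-2, 1 was called higher (23.1%) and 0 lower (23.7%). Over the mean of both lines 3 were called higher (29.2%). The median log2 difference of the 5 was 0.99 in H9 and 0.17 in RUES-2. Because of how KHDC3L and KHDC1L passed, these counts are a description only.

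Promoters are shown to compare their CpG content, since methylation acts on CG pairs. They are those of KHDC3L, KHDC1L and NLRP7, each called in 1 line in the main test, and of NLRP2, called in neither. The RefSeq table of the GRCh38.p14 build held 11 starts for 8 of the 10 genes. KHDC3L, KHDC1L, NLRP7, NLRP2, OOEP, MAEL, DPPA5 and DAZL were matched, and HORMAD1 and ARGFX were not. The lines below give the 250 bases before the start, 5′ to 3′ on the gene's strand, with every CG in capitals. They are chr6:73362408-73362657 on the plus strand for KHDC3L, chr6:73225497-73225746 on the minus strand for KHDC1L, chr19:54947531-54947780 on the minus strand for NLRP7 and chr19:54966124-54966373 on the plus strand for NLRP2.
KHDC3L: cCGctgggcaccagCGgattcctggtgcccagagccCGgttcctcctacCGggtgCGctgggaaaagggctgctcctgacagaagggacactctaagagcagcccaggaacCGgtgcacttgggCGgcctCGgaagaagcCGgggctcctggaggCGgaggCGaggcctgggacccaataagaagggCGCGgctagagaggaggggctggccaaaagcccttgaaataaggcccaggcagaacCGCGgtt
KHDC1L: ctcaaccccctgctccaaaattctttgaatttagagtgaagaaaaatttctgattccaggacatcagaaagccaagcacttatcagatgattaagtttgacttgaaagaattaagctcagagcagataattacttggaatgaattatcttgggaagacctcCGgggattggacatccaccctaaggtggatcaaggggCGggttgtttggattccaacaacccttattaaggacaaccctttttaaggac
NLRP7: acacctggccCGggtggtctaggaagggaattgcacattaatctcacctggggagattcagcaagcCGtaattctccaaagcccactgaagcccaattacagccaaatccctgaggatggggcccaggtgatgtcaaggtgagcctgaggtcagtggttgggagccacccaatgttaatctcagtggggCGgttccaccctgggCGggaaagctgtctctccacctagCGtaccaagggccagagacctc
NLRP2: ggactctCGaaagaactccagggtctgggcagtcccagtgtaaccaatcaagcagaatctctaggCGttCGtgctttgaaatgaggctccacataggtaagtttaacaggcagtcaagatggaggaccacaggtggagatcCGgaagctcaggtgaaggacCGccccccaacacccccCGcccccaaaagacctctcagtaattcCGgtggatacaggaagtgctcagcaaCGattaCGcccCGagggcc

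The KHDC3L window held 15 CG pairs and 65.6% G and C, while the KHDC1L window held 2 CG pairs and 41.2%, so the 2 genes that shared a pattern across libraries had unlike promoters in this respect. NLRP7 had 5 CG pairs and NLRP2 had 10. Over all 35116 promoters in the table the median was 11 CG pairs and the quartiles were 3 and 23. OOEP had 17, DPPA5 19, the 2 DAZL starts 28 and 23, and the 2 MAEL starts 51 and 22, and 99.9% of promoters had as few CG pairs as the first MAEL start. NLRP2 has 2 starts 1090 bp apart in the table, and their windows differed at 1 of 250 bases.

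A set of 3 short motifs were searched on both strands of these windows: CACGTG, the E-box bound by MYC, MAX and MGA, TTCCCGC, the core of the E2F motif, and TAATCC, read by paired-like homeobox proteins of the OTX and CRX kind. None of them contains another. CACGTG was found in 6.34% of all promoters, TTCCCGC in 5.52% and TAATCC in 5.62%. TTCCCGC was found once in the NLRP7 window, beginning 47 bases before the start, and once in the DPPA5 window, beginning 150 bases before it. CACGTG was found once at the second MAEL start, 211 bases before it, and once at the second DAZL start, 154 bases before it. KHDC3L, KHDC1L, NLRP2 and OOEP held 0 matches to any of the 3 in this window.

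KHDC3L, a KH domain protein of the subcortical maternal complex whose loss is known from familial hydatidiform mole, lies at chr6:74072400-74073898 on hg19. It had 7.27, 8.97 and 12.2 FPKM in naive H9, against 0, 0.0437 and 0.203 FPKM in primed H9. Naive RUES-2 had 0.302, 0.122 and 0.172 FPKM, and primed RUES-2 had 0, 0 and 0.205 FPKM. Every naive H9 library stood above the other 9, whose highest value was in naive RUES-2, and the naive and primed RUES-2 libraries overlapped. The deposited bounds imply 132, 138 and 335 fragments in naive H9 and at most 6 in any other library.

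The state difference of KHDC3L in H9 was 3.25 ± 0.16 on the log2(FPKM + 1) scale (SE; limma adjusted p = 5.08e-07, n = 3 libraries per group), with adjusted p between 1.16e-07 and 0.000239 over 22 other settings. In libraries labelled RUES-2 it was 0.17 ± 0.16 (limma adjusted p = 0.427). The difference between these 2 differences, RUES-2 minus H9, was -3.08 ± 0.23 (limma adjusted p = 0.000187). Between naive RUES-2 and naive H9 the gene differed by -3.10 (limma adjusted p = 6.96e-06), and between primed RUES-2 and primed H9 by -0.02 (limma adjusted p = 0.979). KHDC3L entered the test through naive H9 alone, so its differences that involve naive H9, with their p-values, are a description only. The scale understates changes of low genes, and with primed libraries listed at 0 no ratio of FPKM is given.

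KHDC1L, a relative of KHDC1 known from cells that resemble the embryo at genome activation, lies at chr6:73933268-73935175 on hg19, 128 kb from the nearer end of the DPPA5, KHDC3L and OOEP cluster. It had 3.77, 2.1 and 2.06 FPKM in naive H9, against 0, 0.0831 and 0.387 FPKM in primed H9. Naive RUES-2 had 0.766, 0 and 0 FPKM, and primed RUES-2 had 0.161, 0.0977 and 0 FPKM. Naive H9 again stood above all 9 others, at 17 to 34.7 implied fragments. The difference was 1.64 ± 0.25 in H9 (SE; limma adjusted p = 0.000482) and 0.16 ± 0.25 in libraries labelled RUES-2 (limma adjusted p = 0.631). The difference between them was -1.48 ± 0.35 (limma adjusted p = 0.0359), a call that is lost under 12 of 21 other settings, with adjusted p between 0.0137 and 0.137. Naive RUES-2 and naive H9 differed by -1.56 (limma adjusted p = 0.00248). KHDC1L too entered the test through naive H9 alone, so its differences that involve naive H9 are a description only.

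For the difference between lines, KHDC3L and KHDC1L were the 2 of 5 called lower, against 1.93% of all genes tested. They were also the 2 called lower in naive RUES-2 than in naive H9 (4.69%). Between primed RUES-2 and primed H9, 0 were called higher (1.34%) and 0 lower (0.471%) by limma, and 0 had an unadjusted p under 0.05. Since KHDC3L and KHDC1L entered the test through naive H9, a lower value in the RUES-2 terms of both comparisons was built in, and nothing is read from these counts. Of all 23590 symbols, 1125 (4.77%) stood in every naive H9 library above all 9 others, and 2 of the 10 genes did.

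**Figure D2:**
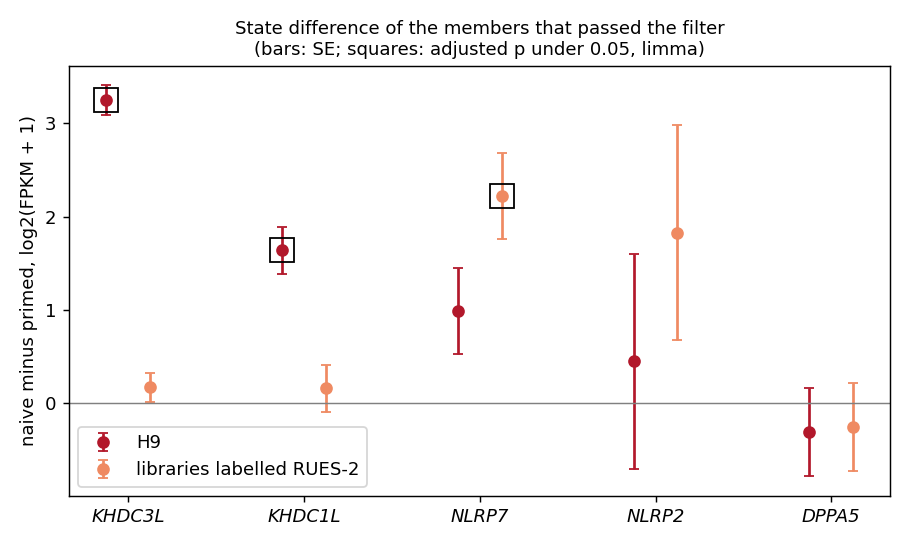
Naive minus primed difference of mean log2(FPKM + 1) (vertical axis) for the 5 genes that entered the main test, in H9 and in libraries labelled RUES-2; bars are standard errors and squares mark adjusted p under 0.05 from limma. KHDC3L and KHDC1L are called in H9, at 3.25 and 1.64, and NLRP7 in RUES-2, at 2.22. KHDC3L and KHDC1L entered the test through naive H9 alone.

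The neighbours of KHDC3L on chromosome 6 did not share its pattern. OOEP, which encodes another KH domain protein of the subcortical maternal complex and lies at chr6:74078280-74079515 on hg19, 4.38 kb from KHDC3L, had 0, 0.112 and 0.437 FPKM in naive H9, against 0, 0.227 and 0.117 FPKM in primed H9. It was listed at 0 in all 6 libraries labelled RUES-2. Its groups overlapped in H9, and the highest value rests on 7 implied fragments.

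DPPA5, a KH domain protein of mouse embryonic stem cells and early germ cells at chr6:74062785-74063999 on hg19, had 0.889, 0 and 0.129 FPKM in naive H9, against 0.155, 0.157 and 2.07 FPKM in primed H9. Naive RUES-2 had 2.17, 0.547 and 1.03 FPKM, against 2.12, 0.461 and 2.66 FPKM in primed RUES-2. The states overlapped under both labels. The difference was -0.31 ± 0.47 in H9 (SE; limma adjusted p = 0.616) and -0.25 ± 0.47 in RUES-2 (limma adjusted p = 0.691), on at most 29 implied fragments.

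KHDC1, which lies between KHDC1L and DPPA5, was called lower in naive cells of both labels. It had 2.01, 2.01 and 2.87 FPKM in naive H9, against 3.43, 3.32 and 3.62 FPKM in primed H9, and 0.666, 0.344 and 0.932 FPKM in naive RUES-2, against 2.72, 2.88 and 2.91 FPKM in primed RUES-2. The differences were -0.44 in H9 (limma adjusted p = 0.0253) and -1.23 in RUES-2 (limma adjusted p = 7.4e-05). Of the 5 genes of this KH domain family, 4 entered the test. In H9 2 were called higher and 1 lower, beside 20.4% and 23.9% of all genes tested. Within 1 family and 1 chromosome band the directions thus differed. The 2 called higher were KHDC3L and KHDC1L, which entered through naive H9 alone.

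DDX43, an RNA helicase gene known from testis and tumours that follows OOEP on the chromosome, was chosen after its values were seen. It had 0.416, 0.107 and 0.391 FPKM in naive H9, against 0, 0.0287 and 0.089 FPKM in primed H9, and 0.495, 0.52 and 0.263 FPKM in naive RUES-2, against 0.0277, 0.0337 and 0.0504 FPKM in primed RUES-2. Naive stood above primed under both labels, at levels too low for the main test.

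NLRP7, an NLRP protein of the oocyte whose maternal mutations are known from recurrent hydatidiform mole, lies at chr19:55434877-55458873 on hg19. It had 28.3, 12.6 and 12.1 FPKM in naive RUES-2, against 4.71, 0.732 and 4.18 FPKM in primed RUES-2, and 8.84, 5.25 and 6.06 FPKM in naive H9, against 2.61, 2.07 and 3.99 FPKM in primed H9. Every naive library stood above every primed library of its own label, and all 3 naive RUES-2 libraries above every other library. The primed groups overlapped.

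The NLRP7 difference was 2.22 ± 0.46 in libraries labelled RUES-2 (SE; limma adjusted p = 0.00273) and 0.99 ± 0.46 in H9 (limma adjusted p = 0.102). The difference between them was 1.23 ± 0.65 (limma adjusted p = 0.31), so a difference between lines was not detectable. Without primed RUES-2 replicate 2, which holds the lowest value, the H9 difference of 0.99 had a limma adjusted p of 0.0295. Naive RUES-2 and naive H9 differed by 1.19 (limma adjusted p = 0.106), with an adjusted p of 0.0318 without that library. Over the mean of both lines the difference was 1.61 (limma adjusted p = 0.0016).

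NLRP2, its neighbour 17.8 kb away at chr19:55476652-55512510 on hg19, also encodes an NLRP protein of the oocyte and was the most abundant of the 10 genes. It had 54, 52 and 62.8 FPKM in naive H9, against 39.9, 42.3 and 40.1 FPKM in primed H9. The naive H9 libraries stood above all primed H9 libraries. Naive RUES-2 had 81.9, 56.2 and 59 FPKM, against 63.3, 0.445 and 66.8 FPKM in primed RUES-2, which overlapped apart from replicate 2 of the primed group.

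With all libraries the NLRP2 difference was 0.45 ± 1.15 in H9 (SE; limma adjusted p = 0.778) and 1.83 ± 1.15 in RUES-2 (limma adjusted p = 0.217). Primed RUES-2 replicate 2 weighs on both tests, since all libraries share 1 estimate of the spread. Without it, the H9 difference stayed at 0.45 with a limma adjusted p of 0.0211. The RUES-2 difference itself became -0.01 (limma adjusted p = 0.979). In that library NLRP2 differed from the mean of replicates 1 and 3 by -5.51 on the log2(FPKM + 1) scale, rank 30 from the lowest of 14429 genes. NLRP7 stood at -1.65 (rank 115 from the lowest) and DPPA5 at -1.22 (rank 175).

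Genes around NLRP7 and NLRP2 were closer to their group in primed RUES-2 replicate 2. FCAR had 3.12 FPKM there, against 3.07 and 3.26 FPKM in replicates 1 and 3, and NCR1, the gene next to NLRP7, had 1.9 FPKM, against 1.48 and 1.45 FPKM. On the far side of NLRP2, RDH13 had 5.78 FPKM, against 4.84 and 5.61 FPKM, PPP1R12C had 18.4 FPKM, against 17 and 17.5 FPKM, and EPS8L1 had 5.2 FPKM, the lowest of its group, against 6.66 and 5.78 FPKM.

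**Figure D3:**
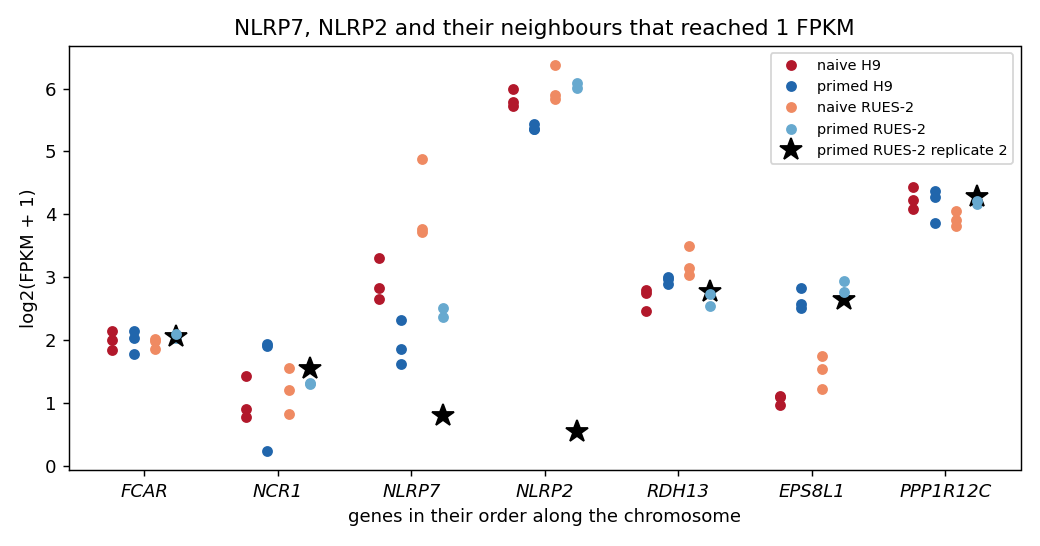
Level as log2(FPKM + 1) (vertical axis) of NLRP7, NLRP2 and the genes within 100 kb that reached 1 FPKM, in their order along the chromosome; each point is a library, coloured by group, and the star is primed RUES-2 replicate 2. The star lies with its group for FCAR, RDH13 and PPP1R12C and below all other points for NLRP7 and NLRP2.

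Of 14 genes of the NLRP family, 3 entered the main test, NLRP7, NLRP2 and NLRP12, and none was called lower. In H9 0 were called by limma, and 0 had an unadjusted p under 0.05 there, while NLRP7 was called in RUES-2. Of 8 genes placed in or near the subcortical maternal complex, 5 entered. KHDC3L was called higher in H9 and NLRP7 in RUES-2, while TLE6, a transcriptional corepressor relative and core member of the complex, was called lower under both labels. KHDC3L entered the test through naive H9 alone and TLE6 through primed libraries alone, so their calls are a description only. Of all genes tested, 20.4% were called higher and 23.9% lower in H9, and 23.1% and 23.7% in RUES-2.

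TLE6 had 0.125, 0.118 and 0.0981 FPKM in naive H9, against 1.23, 0.269 and 1.23 FPKM in primed H9 (difference -0.73, limma adjusted p = 0.0148). It had 0, 0.0289 and 0.0815 FPKM in naive RUES-2, against 1.34, 0.731 and 0.821 FPKM in primed RUES-2 (difference -0.91, limma adjusted p = 0.0044). TLE6 reached 1 FPKM in primed libraries alone and entered the test through them, so both differences are a description only. NLRP5, the maternal antigen that the complex is built around in mouse, was listed at 0 in all 12 libraries, and PADI6 in 11 of them. In naive H9, where KHDC3L was high, OOEP, NLRP5, PADI6 and TLE6 were at or near 0.

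Most oocyte factors were at or near 0 as well. Of the 20 genes of that list 19 were in the tables, 9 of them were listed at 0 in all naive H9 libraries, and BMP15 and NOBOX were listed at 0 in all 12. Only ZP3, a zona pellucida glycoprotein gene, entered the main test, with a difference of -0.68 in H9 (limma adjusted p = 0.0509) and -0.16 in RUES-2 (limma adjusted p = 0.627). The summed level of the list was 2.76 to 3.29 FPKM in naive H9, against 2.58 to 5.36 FPKM in primed H9, and 3.85 to 4.73 FPKM in naive RUES-2, against 5.05 to 5.94 FPKM in primed RUES-2.

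HORMAD1, a HORMA domain protein of the meiotic chromosome axis, lies at chr1:150670535-150693364 on hg19. It had 0.745, 0.0942 and 0.784 FPKM in naive H9 and 0, 0 and 0 FPKM in primed H9. Naive RUES-2 had 0.689, 0.179 and 0.589 FPKM, and primed RUES-2 had 0, 0 and 0 FPKM. All 6 naive libraries thus stood above all 6 primed ones, and replicate 2 was the lowest of each naive group, at 1.77 implied fragments in H9 and 4.76 in RUES-2.

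HORMAD1 did not reach the filter of the main test. Without a filter, over 21322 genes with a value, its difference was 0.59 in H9 (limma adjusted p = 0.0308) and 0.55 in RUES-2 (limma adjusted p = 0.0365), where 15.1% and 17.3% of genes were called higher. It and NLRP7 were the 2 of 10 genes for which every naive library labelled RUES-2 stood above every primed one, which held for 20.9% of all symbols. In H9 that held for 5 of the 10, KHDC3L, KHDC1L, NLRP7, NLRP2 and HORMAD1, and for 19.7% of all symbols.

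Of 20 genes of the meiotic chromosome axis and synapsis, 6 entered the main test. In H9 REC8, the meiotic cohesin subunit, was called higher and MEIOB lower, beside 20.4% and 23.9% of all genes tested. In libraries labelled RUES-2 MEIOB was called higher and DMC1, STAG3 and SYCE2 lower, beside 23.1% and 23.7%. The test of the difference between lines called MEIOB alone of these, with limma adjusted p between 0.379 and 0.563 for DMC1, REC8, STAG3 and SYCE2. REC8 had 19.8, 23 and 19.8 FPKM in naive H9, against 13.6, 16.4 and 10.9 FPKM in primed H9 (difference 0.59, limma adjusted p = 0.0133). STAG3, another meiotic cohesin subunit, differed by -0.73 in RUES-2 (limma adjusted p = 0.00545), and SYCE2, of the central element of the synaptonemal complex, by -0.69 (limma adjusted p = 0.0225). STAG3 entered the test through primed libraries alone, so its call is a description only. MEIOB entered through naive RUES-2, so its calls that involve naive RUES-2 are a description only too.

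MEIOB, a single-strand DNA binding protein of meiotic recombination, had 0.239, 0.176 and 0.039 FPKM in naive H9, against 0.935, 0.816 and 4.74 FPKM in primed H9. It had 6.25, 11.7 and 5.8 FPKM in naive RUES-2, against 1.83, 0.175 and 0.607 FPKM in primed RUES-2. The groups did not overlap under either label, and the directions were opposite. The difference was -1.25 in H9 (limma adjusted p = 0.0459) and 2.29 in RUES-2 (limma adjusted p = 0.00217), and these differed by 3.54 ± 0.64 (SE; limma adjusted p = 0.0121). Outside naive RUES-2 only the libraries with 4.74 and 1.83 FPKM reached 1 FPKM, so MEIOB entered the test through naive RUES-2. Its RUES-2 difference and the difference between lines are therefore a description only.

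MAEL, a protein of the piRNA pathway that silences transposons in germ cells, lies at chr1:166958519-166991447 on hg19. It had 0.0295, 0.0348 and 0.058 FPKM in naive H9, against 0, 0.0936 and 0.218 FPKM in primed H9, and 0.0539, 0.0653 and 0.0307 FPKM in naive RUES-2, against 0.136, 0.0275 and 0.0274 FPKM in primed RUES-2. The states overlapped under both labels, and no library implied more than 6 fragments, so a difference was not detectable at this depth.

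Of 18 genes of the piRNA pathway, 3 entered the main test. HENMT1, the methyltransferase that protects piRNA ends, and TDRKH, a Tudor protein of piRNA trimming, were called lower under both labels. Of all genes tested, 23.9% were called lower in H9 and 23.7% in RUES-2. HENMT1 had 1.9, 1.84 and 1.89 FPKM in naive H9, against 4.61, 3.74 and 5.65 FPKM in primed H9 (difference -0.97, limma adjusted p = 0.000509), and differed by -1.37 in RUES-2 (limma adjusted p = 5.32e-05). TDRKH differed by -0.94 in H9 (limma adjusted p = 0.000179) and by -0.71 in RUES-2 (limma adjusted p = 0.000903). TDRD7 was called higher in RUES-2, by 0.53 (limma adjusted p = 0.014), beside 23.1% of all genes tested.

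DAZL, an RNA-binding protein that germ cells need to enter gametogenesis, lies at chr3:16628301-16647006 on hg19. It had 0.203, 0.245 and 0.333 FPKM in naive RUES-2, against 0.365, 0.738 and 0.78 FPKM in primed RUES-2. Every naive library labelled RUES-2 stood below every primed one, as did 23.3% of all symbols. Naive H9 had 0.444, 0.708 and 0.135 FPKM and primed H9 had 0.595, 1.39 and 0.76 FPKM, which overlapped. Without a filter the difference over both lines was -0.39 (limma adjusted p = 0.029), where 25.3% of genes were called lower, while the lines alone gave -0.42 in H9 (limma adjusted p = 0.103) and -0.36 in RUES-2 (limma adjusted p = 0.151).

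Of 14 genes of germ cell specification and RNA binding, 8 entered the main test. In H9 2 were called higher and 2 lower, beside 20.4% and 23.9% of all genes tested. In RUES-2 3 were called higher and 1 lower, beside 23.1% and 23.7%. PRDM1, a transcriptional repressor that specifies human primordial germ cells, had 4.68, 4.43 and 2.88 FPKM in naive H9, against 0.332, 0.324 and 0.232 FPKM in primed H9, and 6.57, 3.7 and 4.13 FPKM in naive RUES-2, against 1.08, 0.555 and 0.727 FPKM in primed RUES-2. It rose by 1.93 in H9 (limma adjusted p = 4.43e-05) and 1.68 in RUES-2 (limma adjusted p = 0.000104). Of the primed libraries only that with 1.08 FPKM reached 1 FPKM. PRDM1 thus entered the test through naive libraries, and both differences are a description only. TFAP2C, an AP-2 factor of naive cells and of germ cell precursors, rose by 1.93 in H9 (limma adjusted p = 0.00338), while its difference in RUES-2 was 0.75 (limma adjusted p = 0.151).

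KIT, the stem cell factor receptor, fell by 0.96 in H9 (limma adjusted p = 0.00636) and by 1.46 in RUES-2 (limma adjusted p = 0.000502). TEX15, known from meiosis and transposon silencing in male germ cells, differed by 0.77 in RUES-2 (limma adjusted p = 0.0053) and by -0.26 in H9 (limma adjusted p = 0.256). DDX4, the germ cell helicase, did not exceed 0.0229 FPKM in any library. SOX17, of the same list, was called lower in H9, at -0.69 (limma adjusted p = 0.0368), and higher in RUES-2, at 0.79 (limma adjusted p = 0.019). Its difference between lines was 1.49 (limma adjusted p = 0.0303). PRDM14 was called in neither line, at -0.21 in H9 (limma adjusted p = 0.588) and -0.75 in RUES-2 (limma adjusted p = 0.0624). DAZL and DDX4, markers of later germ cells, were at low levels in every library.

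ARGFX, a paired-like homeobox gene at chr3:121286778-121309469 on hg19, had 0.481, 0.534 and 0.646 FPKM in naive H9, against 0.712, 0.574 and 0.563 FPKM in primed H9. Naive RUES-2 had 0.656, 0.508 and 0.502 FPKM, against 0.635, 0.72 and 0.476 FPKM in primed RUES-2. All 12 values lay between 0.476 and 0.72 FPKM, on at least 43.7 implied fragments each, and all 4 groups overlapped. Without a filter the difference was -0.06 in H9 (limma adjusted p = 0.6) and -0.05 in RUES-2 (limma adjusted p = 0.646).

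Other genes of the list of paired-like homeobox and genome activation genes were highest in naive H9. Of its 16 genes, 11 stood in every naive H9 library above all 9 others, as KHDC1L did, beside 4.77% of all symbols. They were TPRX1, LEUTX, ZSCAN4, KHDC1L, TRIM43, TRIM49, PRAMEF1, PRAMEF2, RFPL4A, RFPL4B and KDM4E, and all but KHDC1L and RFPL4A were chosen after their values were seen. The list was chosen with results of these data known, and several of its genes belong to families of near-identical copies, among which reads may be divided in ways the tables do not show. The summed level was 11.4 to 15 FPKM in naive H9, against 3.05 to 3.72 FPKM in primed H9, and 3.01 to 3.99 FPKM in naive RUES-2, against 3.5 to 3.73 FPKM in primed RUES-2.

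RFPL4A, a RING finger gene of oocytes and early embryos, had 1.15, 1.28 and 1.01 FPKM in naive H9 and was listed at 0 in primed H9. It had 0.0585, 0 and 0 FPKM in naive RUES-2 and was listed at 0 in primed RUES-2. It was called higher in H9, by 1.10 ± 0.09 (SE; limma adjusted p = 7.21e-06), and the difference between lines was -1.07 (limma adjusted p = 0.00179). It reached 1 FPKM in the naive H9 libraries alone and so entered the test through the group where it is high, and both values are a description only. LEUTX, a paired-like homeobox gene of the human embryo at genome activation, had 0.674, 1.25 and 0.757 FPKM in naive H9 and was listed at 0 in the 9 others. TRIM43 had 1.93, 0.955 and 1.47 FPKM in naive H9 and at most 0.029 FPKM elsewhere. ZSCAN4, known from genome activation, had 0.419, 0.448 and 0.383 FPKM in naive H9 and at most 0.0806 FPKM elsewhere.

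CRX, a photoreceptor homeobox factor, had 1.38 to 2.08 FPKM over all libraries. It was called lower in naive RUES-2, by -0.25 (limma adjusted p = 0.0377), with every naive library below every primed one, and differed by -0.10 in H9 (limma adjusted p = 0.382). Only 3 of the 16 genes, KHDC1L, RFPL4A and CRX, entered the main test. Among the homeobox genes of the list, LEUTX and TPRX1 were detected mainly in naive H9. ARGFX, CRX and DUXA, the last at 0.537 to 0.95 FPKM, were present in all 12 libraries. DPRX did not exceed 0.112 FPKM in any.

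**Figure D4:**
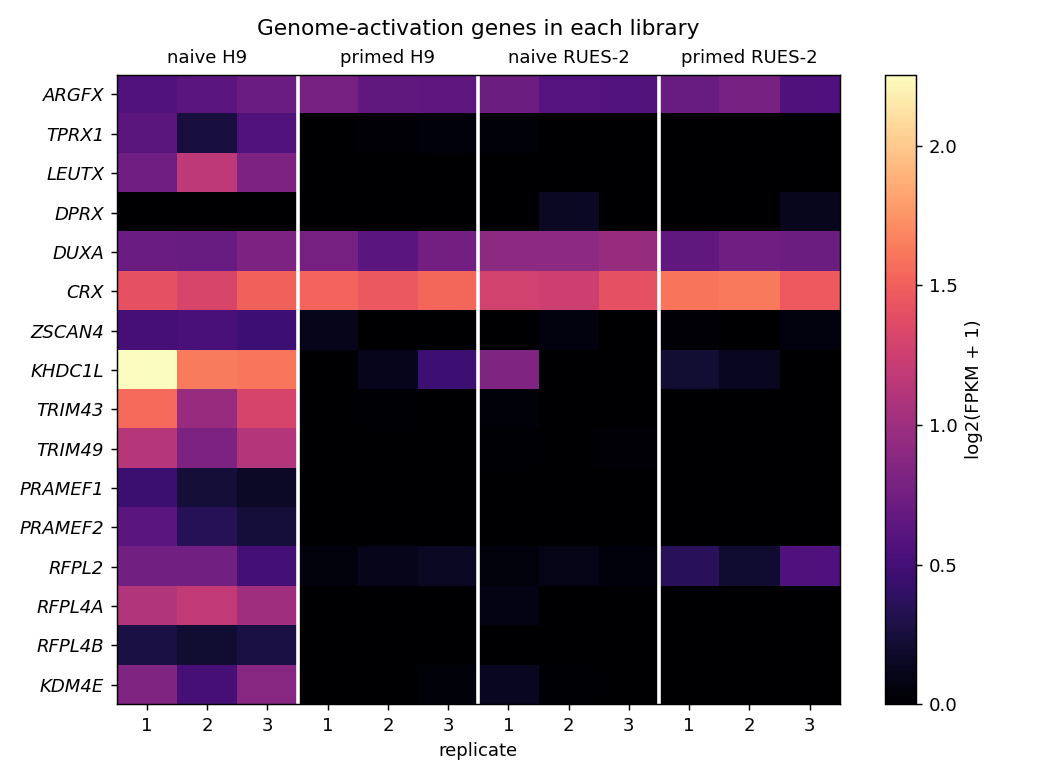
Level as log2(FPKM + 1) (colour) of 16 paired-like homeobox and genome activation genes (rows) in the 12 libraries (columns, replicates 1 to 3 of each group). For 11 genes every naive H9 column is above all others, some only faintly: PRAMEF1, PRAMEF2 and RFPL4B have at most 0.535 FPKM there. ARGFX, DUXA and CRX are present in all 12.

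Genes of DNA methylation and germline gene silencing, background for the promoters above, all entered the test (15 of 15). In H9 3 were called higher and 4 lower, beside 20.4% and 23.9% of all genes tested. In RUES-2 3 were called higher and 5 lower, beside 23.1% and 23.7%. Nothing is read from these counts. DNMT3L, the cofactor of the de novo methyltransferases in germ cells, had 14.9, 9.43 and 16.7 FPKM in naive H9, against 0.141, 0.0953 and 0.888 FPKM in primed H9, and 74.7, 32.1 and 25.3 FPKM in naive RUES-2, against 1.2, 0.308 and 1 FPKM in primed RUES-2. It rose by 3.42 in H9 (limma adjusted p = 8.38e-05) and by 4.49 in RUES-2 (limma adjusted p = 1.47e-05). DNMT3L would have missed the filter without its naive libraries, so both differences are a description only. DNMT3B, a de novo methyltransferase, had 73.9, 75.8 and 83.6 FPKM in naive H9, against 373, 254 and 325 FPKM in primed H9, and differed by -2.0 (limma adjusted p = 5.11e-06), with -2.71 in RUES-2 (limma adjusted p = 9.68e-07).

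UHRF1, which guides maintenance methylation, rose by 1.29 in H9 (limma adjusted p = 0.0137), with 0.82 in RUES-2 (limma adjusted p = 0.0826), and EHMT2, a histone methyltransferase known in mouse to repress germline genes, fell by 0.64 in H9 (limma adjusted p = 0.00339) and by 0.81 in RUES-2 (limma adjusted p = 0.000761). Among 10 developmental pluripotency associated genes, 1 was called higher and 4 lower in H9, beside 20.4% and 23.9% of all genes tested. In RUES-2 1 was called higher and 5 lower, beside 23.1% and 23.7%. GDF3, a TGF-beta ligand, was the higher one, by 1.67 in H9 (limma adjusted p = 0.0188) and 1.57 in RUES-2 (limma adjusted p = 0.0236). TDGF1, UTF1 and L1TD1 were lower in H9, with differences of -1.73, -1.80 and -1.16 (limma adjusted p = 0.00074, 0.0167 and 0.000652). DPPA5, of the same list, was called in neither line.

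Markers of other cell types were called in numbers that stand beside 20.4% higher and 23.9% lower of all genes in H9, and 23.1% higher and 23.7% lower in RUES-2. Among fibroblast markers COL3A1 was the most changed, by 5.74 in H9 and 6.37 in RUES-2. Of the trophoblast markers, 3 were called higher and 1 lower in H9, and 2 higher and 2 lower in RUES-2. HAND1 was higher by 4.27 in H9 and 2.82 in RUES-2, and CDX2 by 2.98 in H9 and 2.04 in RUES-2. KRT7 differed by -2.0 in H9 and -2.66 in RUES-2. CDX2 entered the test through naive libraries and KRT7 through primed libraries, so their differences are a description only. Endoderm markers gave 3 higher and 1 lower in H9 and 4 higher and 1 lower in RUES-2, and neural markers 3 higher and 0 lower under each label. These were called by limma at an adjusted p under 0.05, and their part in the values of the oocyte and germline genes was not tested.

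The genes closest to each tested member in pattern were sought by the root mean square difference of centred log2(FPKM + 1) over the 12 libraries, a description with no test. Closest to KHDC3L was STMN2, at 0.488, with 12.1 to 15.3 FPKM in naive H9 and at most 2.73 FPKM in the other libraries, then TCL1B at 0.568, LOC400043 at 0.615, CYP2E1 at 0.619 and GDA at 0.623. Closest to KHDC1L were SPATA22 at 0.282, a meiotic recombination gene with 1.33 to 2.23 FPKM in naive H9 and at most 0.104 FPKM elsewhere, GDA at 0.299 and ALPPL2 at 0.310. Each of these reached its highest level in naive H9.

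Closest to NLRP7 were CCDC3 at 0.388, HSBP1L1 at 0.425 and APOBEC3G at 0.450. HSBP1L1 had 5.5 to 10.1 FPKM in naive RUES-2 and at most 0.633 FPKM in any primed library. For NLRP2 the nearest were SNORA72 at 0.825, PSIMCT-1 at 0.918 and SNORA52 at 0.975, so no gene followed it as closely as for the others, and 2 of these are small RNAs that poly(A) libraries measure poorly. Closest to DPPA5 were SERPINB6 at 0.347, DEPTOR at 0.357 and TMBIM1 at 0.363.

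KHDC3L averaged 9.48 ± 2.5 FPKM in naive H9, 0.0824 ± 0.107 in primed H9, 0.199 ± 0.0929 in naive RUES-2 and 0.0682 ± 0.118 in primed RUES-2 (SD, n = 3 each), and the last 3 did not differ beyond their spread. NLRP7 averaged 17.7 ± 9.21 FPKM in naive RUES-2, 3.21 ± 2.16 in primed RUES-2, 6.72 ± 1.88 in naive H9 and 2.89 ± 0.989 in primed H9, and the 2 primed groups did not differ beyond their spread. NLRP2 averaged 56.3 ± 5.78 FPKM in naive H9 and 40.8 ± 1.35 in primed H9, and was above every other of the 10 genes in 11 of the 12 libraries.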

How the data were processed

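The members and gene lists were chosen with earlier results of these data known. Each library has a table deposited by the authors that lists genes with an FPKM, a lower and upper bound and a status flag. Its header says FPKM where the design text says RPKM. Which program and annotation gave the values is not stated in the sources used here. The submitters' processing notes name bcl2fastq 2.17.1.14, TopHat2 2.1.1 and the build hg19. Each table had 25278 entries for 23615 symbols. Where a symbol had several loci (310 symbols), the one of highest mean level was used, which left 23590 on main chromosomes, and 0 pairs of libraries held identical values. Strandedness is not given, so values of overlapping genes are uncertain. Read counts were not used here. Implied fragments are the square of FPKM over its standard deviation, with the upper bound read as 2 standard deviations above it, and cover counting error only.

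The 14429 genes that reached 1 FPKM in 3 or more libraries were tested, two-sided, on log2(FPKM + 1) with limma 3.58.1 in R 4.3.3. A gene that would have missed this filter without a single group or state entered through it. Its calls there are a description only. The model gave each of the 4 groups a mean, used the 12 libraries together and had a variance trend, with Benjamini-Hochberg adjustment over all genes tested. The contrasts were naive against primed per line, their mean and difference, and RUES-2 against H9 per state. The procedure was tested on simulated data. All 10 members are named; from each other list up to 4 genes called in at least 1 line, with the largest mean change; and by likeness 5 genes for KHDC3L and 3 for each other tested member. Other genes named were chosen after their values were seen. Alternatives were pseudocounts of 0.1 and 0.5, no filter and a filter of 0.1 FPKM, the sum of loci, 2 other scalings, no variance trend, a replicate block, each line alone and leaving out each library. Promoters are RefSeq's, GRCh38.p14; of 11 entries, 8 had their last 40 bases in a GENCODE transcript of the gene. Plots used Python 3.11.15, pandas 2.3.3, numpy 2.4.6 and matplotlib 3.10.9.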

Additional observations from a re-analysis of the deposited data

Results flagged for a closer look

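The state difference of KHDC3L differed between lines by -3.08 on the log2(FPKM + 1) scale, RUES-2 minus H9, in the test of that difference (limma adjusted p = 0.000187). It was higher in 3 of 3 naive H9 libraries than in all other libraries. The state difference of KHDC1L differed between lines by -1.48 (limma adjusted p = 0.0359, between 0.0137 and 0.137 over 21 alternatives). Both genes entered the test through naive H9 alone, so a lower RUES-2 term was built in, and these values are a description only. Among libraries labelled RUES-2, line and state cannot be told apart.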

How the results depend on the processing

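The direction of every called difference of the tested members was the same under all alternatives run. Of 640 comparisons of a member's log2 difference with its main value, 622 kept their side of the threshold, 6 gained a call and 12 lost one, the 12 all being KHDC1L between lines. In H9 the number of members called was 2 and became 4 with only the line compared (NLRP7 and NLRP2 added), 3 without a filter, with the filter of 0.1 FPKM and with TPM without short RNAs (HORMAD1 added each time), and 2 to 4 without single libraries. In RUES-2 it was 1 and became 2 without a filter, with the filter of 0.1 FPKM and with TPM without short RNAs (HORMAD1 added). Over both lines it was 3 and became 5 under the same settings (HORMAD1 and DAZL added). Members tested were 5 in the main setting, 10 without a filter, 9 with the filter of 0.1 FPKM and 8 with TPM. Of all genes, 5806 of 14429 were called in H9 with only the line compared. Without a filter 7134 of 21322 were called in H9, 7860 in RUES-2 and 10235 over both lines. With the filter of 0.1 FPKM these were 7185, 7829 and 10092 of 18333, and with TPM 6904, 7186 and 9121 of 15443. Nothing is read from the counts of members. For the difference between lines it was 2 and became 1 with pseudocounts of 0.1 and 0.5 (KHDC1L lost), with 1 to 2 without single libraries. Over all genes, the difference between lines called 823 genes and 408 to 920 without single libraries, naive RUES-2 against naive H9 called 2289 and 1213 to 2811, and the primed lines 262 and 61 to 385. Changed samples and degrees of freedom are part of these settings; other causes were not tested. Replicate numbers did not pair the libraries, since same-numbered deviations correlated at -0.054 to 0.082. With the replicate block the NLRP7 difference of 0.99 in H9 had a limma adjusted p of 0.0441, the primed lines differed in 170 genes, and no other call of a member changed. No scaling shifted the median of all genes by more than 0.08 log2 units in size.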
